A study of Drosophila melanogaster with 15 samples.

Results

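Of the genes whose transcripts were resolved in late embryos and in adult heads of *Drosophila melanogaster*, a small set had more mRNA isoforms in the embryos. These embryo-rich genes were chosen by the isoform numbers themselves. A gene with a FlyBase ID entered when the embryo assembly held at least 3 of its isoforms, the heads assembly held at least 1 and fewer than the embryos, and the ovary assembly held no more than the heads. Hox genes, *Dscam1*, *bt*, *ttk*, *uif* and Cpr cuticle protein genes were left out by name, which removed 8 genes that met the numbers. The set had 137 genes. These are 7.96% of the 1721 genes with at least 3 embryo isoforms and at least 1 heads isoform, and the 3 assemblies together listed 11848 FlyBase genes.

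The RNA came from untreated flies of 1 wild-type strain, w1118, with no other allele. Embryos were collected at 14 to 16 h (3 libraries) and 18 to 20 h (3 libraries) after egg laying, heads were taken from 3-day-old adults (6 libraries, of which 2 were made without size selection of the cDNA), and ovaries came from 3-day-old virgin females (3 libraries), with many animals pooled in each library. Full-length cDNA was read on Oxford Nanopore devices, and the authors merged all libraries of a tissue, both embryo ages included, into 1 list of isoforms. The lists held 20701 isoforms for embryos, 74482 for heads and 13398 for ovaries, as exon positions on the dm6 genome without read numbers.

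Each tissue therefore gave 1 value per gene with no replicate error, and no difference below was tested. The number of reads behind an isoform is unknown. The study describes neural tissue as sequenced at greater depth than embryos and ovaries, and the part of depth in the numbers below was not tested. Whole embryos, heads and ovaries are mixtures, so fewer cells of a type and less RNA per cell cannot be told apart. All 6 photoreceptor and neuronal markers (*ninaE*, *trp*, *trpl*, *inaD*, *Arr2* and *elav*) had isoforms in heads, and only *elav* had any in embryos. Of 7 embryo markers, 5 were in the embryo assembly and all 7 in heads, while *Lsp2* and *hh* were absent from embryos. Of 7 ovary markers, 6 were in ovaries, where *vas* had none under its own ID. Of the same 7, 1 (*grk*) was in embryos and 3 (*osk*, *grk* and *Yp1*) were in heads.

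A gene can give rise to several mRNAs by starting transcription at different transcription start sites (TSSs), by joining different exons and by ending at different poly(A) sites (PASs). Late embryos build organs and lay down extracellular matrix. Basement membranes are sheets of this matrix under epithelia and around muscles and nerves, made of laminin, type IV collagen, nidogen and perlecan and bound by integrin receptors on cells. At the same stages the epithelia seal their borders with septate junctions, the tracheal tubes and the cuticle form, and axons reach their targets.

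The numbers of isoforms that chose the set ran from 3 to 36 per gene in embryos (median 5, 1133 isoforms in all) and from 1 to 24 in heads (median 3, 673 isoforms). In ovaries 69 of the 137 genes had any isoform, 149 in all, and 33 of these had 1. The excess of embryos over heads was 1 isoform in 58 genes, 2 in 29 genes, 3 in 11 genes and 4 or more in 39 genes, of which 12 had an excess of 10 or more. In 48 genes the embryo number was at least 2 times that of heads, and 15 genes had 1 heads isoform. Genes just inside the limit were *cv-c* (17 in embryos, 16 in heads), *osp* (13 and 12) and *tai* (13 and 12). Just outside stood *tinc* (23 in both), FBgn0266526 (16 in both) and FBgn0037636 (14 in both). The reference annotation held 135 of the 137 genes, all protein-coding. FBgn0029899 and FBgn0040001 are not in the release used here.

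**Figure D1:**
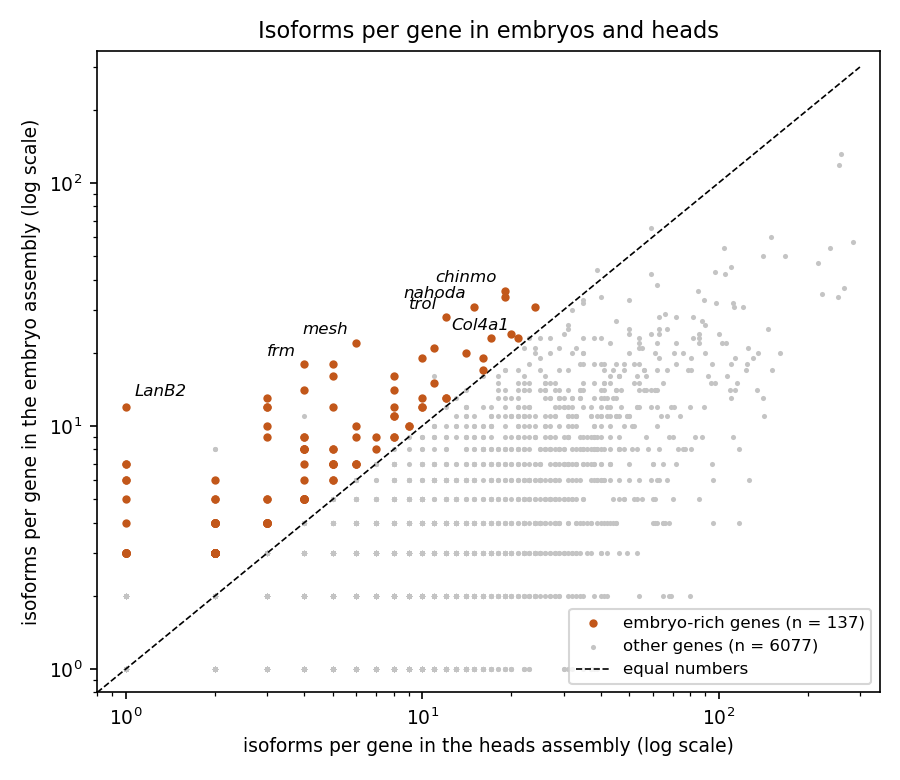
Isoforms per gene in the embryo assembly (vertical axis) against the heads assembly (horizontal axis), both on log scales, for the 6214 genes with a FlyBase ID in both. The 137 embryo-rich genes (orange) lie above the line of equal numbers by their choice, and most other genes (grey) lie below it.

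The gene with the largest excess was *chinmo*, which encodes a BTB zinc-finger transcription factor known for setting the temporal identity of neurons. It had 36 isoforms in embryos, 19 in heads and 2 in ovaries. All 36 embryo isoforms began at 1 TSS (chr2L:1651259, plus strand), as did 18 of the 19 in heads, and the embryo isoforms ended at 14 PASs, against 9 PASs in heads. Of its embryo isoforms, 12 had an identical isoform in heads, that is, the same splice sites within 10 nt, a 5′ end within 50 nt and a 3′ end within 150 nt. The nuclear receptor gene *ftz-f1* had 34 isoforms in embryos, 19 in heads and 6 in ovaries. Its 2 TSSs were found in both assemblies, but the one at chr3L:18765744 (minus strand) began 26 of 34 isoforms in embryos and 7 of 19 in heads. The one at chr3L:18801309 began 8 in embryos and 12 in heads, so the more common start was not the same in the 2 lists. *nahoda* had 31 isoforms in embryos, 15 in heads and 4 in ovaries, all from 1 TSS in embryos and in heads, with 23 intron chains in embryos and 14 in heads. An intron chain is the ordered set of introns of an isoform, whatever its ends.

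*mesh*, which encodes a membrane protein of the smooth septate junction, had 22 isoforms in embryos, 6 in heads and none in ovaries. All 22 embryo isoforms had different intron chains and began at the same TSS as the 6 in heads (chr3R:31195762, minus strand). The PAS at position 31179584 ended 14 embryo and 4 heads isoforms and the one at 31178390 ended 6 embryo and 2 heads isoforms, and 2 further PASs in embryos ended 1 isoform each. In 16 of the 22 embryo isoforms and 3 of the 6 heads isoforms an exon ran across an annotated intron, that is, the intron was present in the isoform. *frm* had 18 isoforms in embryos, 4 in heads and 1 in ovaries, and all 18 and all 4 contained an annotated intron. *CG8170* had 16 isoforms in embryos, 5 in heads and none in ovaries, *CG3777* had 21, 11 and none, *CG33978* on chromosome 4 had 14, 4 and none, and *frac* had 13, 3 and none.

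**Figure D2:**
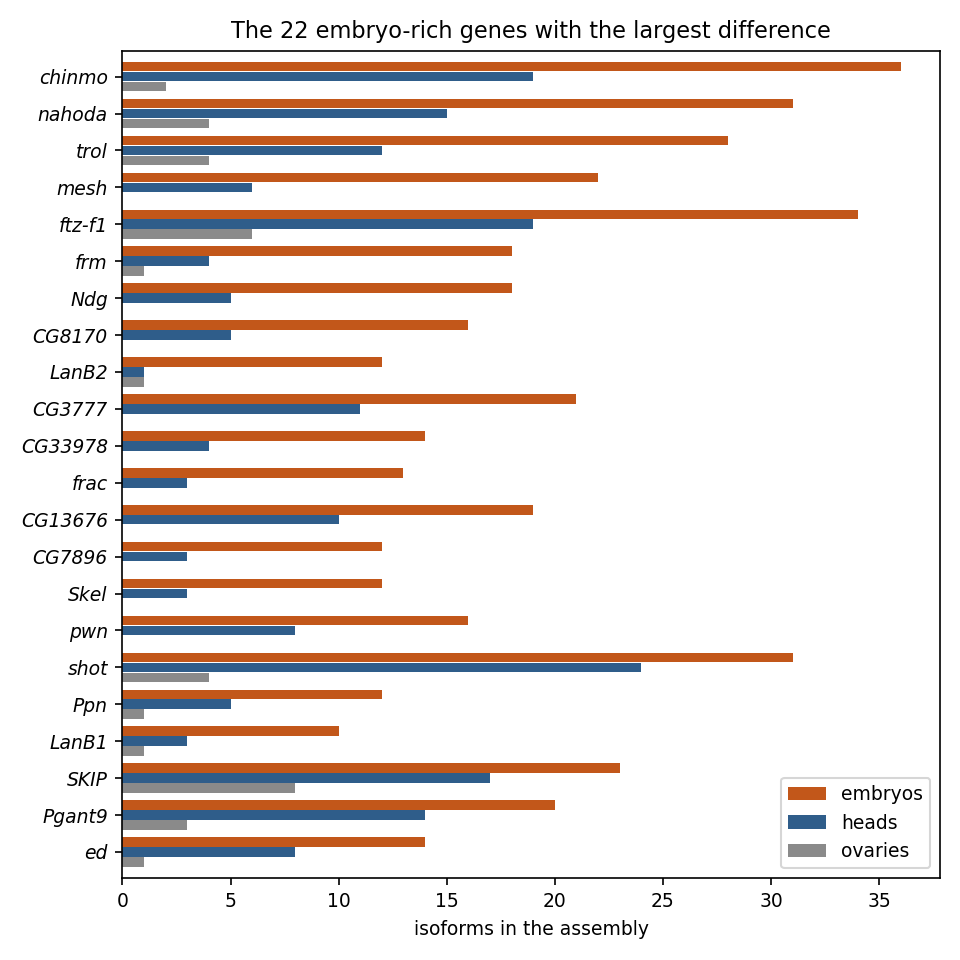
Isoforms in embryos (orange), heads (blue) and ovaries (grey) for the 22 embryo-rich genes with the largest embryo minus heads difference, in that order from the top, with the number of isoforms on the horizontal axis. The genes were chosen by the first 2 values, and 10 of the 22 had no ovary isoform.

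The largest ratio of embryo to heads isoforms was that of *LanB2*, with 12 in embryos, 1 in heads and 1 in ovaries. *CG12964* and *CG11905* each had 7 in embryos and 1 in heads, *CG9095* and *CG4998* each had 6 and 1, and *Ser*, which encodes the Notch ligand Serrate, had 5 and 1. The single heads isoform was identical to at least 1 embryo isoform in *LanB2*, *CG12964*, *CG9095*, *CG4998* and *Ser*. In *CG11905* none of the 7 embryo isoforms was identical to the heads isoform, and their median length was 3509 nt against 1490 nt in heads.

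Of 41 genes of the basement membrane and of integrin adhesion, 28 had at least 3 embryo isoforms and an isoform in heads, and 10 of the 28 (35.7%) belonged to the embryo-rich set, beside 7.96% of all 1721 genes. The list was drawn up with isoform numbers of these data known, and it also holds *stj*, a calcium channel subunit gene, and the lipoprotein receptor gene *LpR1*. Over the 35 genes of the list found in both assemblies, 10 had more isoforms in embryos, 23 had more in heads and 2 had equal numbers.

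The 10 genes included most of the structural components. *trol*, which encodes perlecan, had 28 isoforms in embryos, 12 in heads and 4 in ovaries. *Ndg*, which encodes nidogen, had 18, 5 and none. The laminin chains *LanB1* (beta) and *LanB2* (gamma) had 10 and 12 isoforms in embryos, 3 and 1 in heads, and 1 each in ovaries. *Ppn*, which encodes papilin, had 12 in embryos, 5 in heads and 1 in ovaries. The 2 type IV collagen chains, *Col4a1* and *vkg*, had 23 and 15 isoforms in embryos, 21 and 11 in heads, and 2 and 1 in ovaries. Their difference was thus small in *Col4a1* (2 isoforms), although both were among the isoform-rich genes of the set. *Tig*, which encodes the integrin ligand tiggrin, had 3 in embryos, 2 in heads and none in ovaries.

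Among receptors, the alpha integrin gene *mew* had 11 isoforms in embryos, 8 in heads and 2 in ovaries, and the beta integrin gene *Itgbn* had 3, 2 and 1. The other integrin subunits did not meet the rule, as *mys* (beta) had 3 in embryos and 7 in heads and *if* (alpha) had 12 and 14. The laminin alpha chain gene *LanA* had 1 isoform in each of embryos and heads, and the other alpha chain gene, *wb*, had 7 in embryos and 8 in heads. Genes that act inside the cell on integrins or that modify the matrix had more in heads: *rhea* (talin) had 19 in embryos and 25 in heads, *Vinc* (vinculin) 3 and 15, *Pax* (paxillin) 13 and 26, and the matrix metalloproteinases *Mmp1* and *Mmp2* 11 and 4 in embryos and 33 and 13 in heads. The heparan sulphate proteoglycan genes *Sdc* and *dally* had 11 and 9 in embryos and 40 and 24 in heads.

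**Figure D3:**
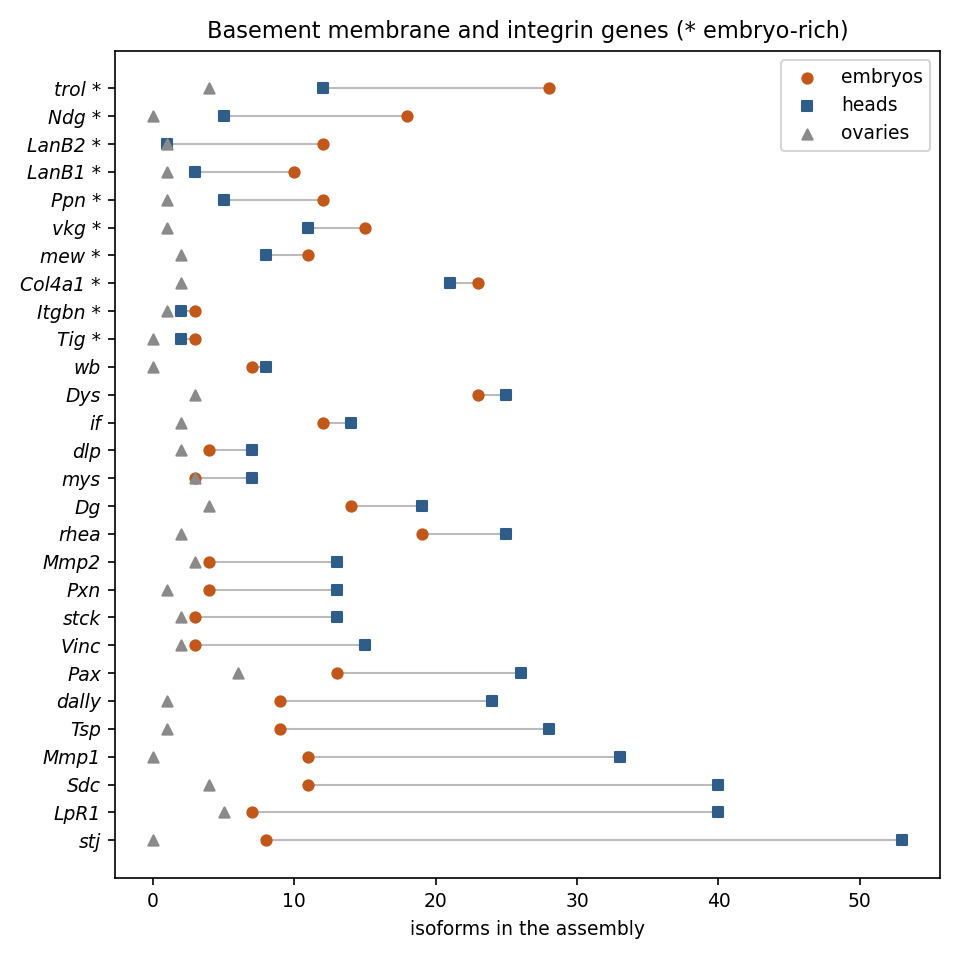
Isoforms in embryos (orange circles), heads (blue squares) and ovaries (grey triangles) on the horizontal axis for the 28 basement membrane and integrin genes with at least 3 embryo isoforms and an isoform in heads, ordered by the embryo minus heads difference. The 10 embryo-rich genes (asterisks) are at the top, and the difference in the other direction reached 45 isoforms, in *stj*.

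*trol* spans chrX:2470460-2545427 (minus strand), has 25 annotated transcripts of up to 14232 nt, and its isoforms all began at 1 TSS in embryos and in heads (position 2545410). The embryo isoforms ended at 14 PASs and the heads isoforms at 7. In 21 of 28 embryo isoforms and 8 of 12 heads isoforms the 3′ end lay before the first annotated stop codon of the gene. The longest was 12279 nt in embryos and 12045 nt in heads. Embryo isoforms used 14 introns that no heads isoform used, all annotated and all between positions 2492421 and 2501626. Among them the intron 2498632-2501626 was in 5 embryo isoforms, and so were the introns 2498116-2498482 and 2497489-2498021.

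In *Ppn* (chr3R:28520665-28540324, minus strand), papilin being a matrix protein with thrombospondin and Kunitz protease inhibitor repeats, an intron differed in use. The annotated intron 28523261-28524033, of 773 nt, was spliced out in 9 of 12 embryo isoforms, in 0 of 5 heads isoforms and in 0 of 1 ovary isoform. It removes 2 coding exons of 171 and 195 nt, both multiples of 3. Both exons were present in 1 embryo isoform, in 3 heads isoforms and in the ovary isoform. Of the other 2 embryo and 2 heads isoforms, 1 of each skipped the same exons with a longer intron and 1 of each had a longer exon there. Among the 1095 introns of embryo-rich genes that at least 3 embryo and at least 2 heads isoforms spanned, 3 had a share of isoforms more than 50 percentage points higher in embryos (in *Ppn*, *nompA* and *frm*) and 11 had one more than 50 points higher in heads. The 2 *Ppn* exons are shown as the coding sequence that 10 of 12 embryo isoforms and 1 of 5 heads isoforms left out, from the RefSeq copy of dm6 and read on the minus strand.
Ppn exon chr3R:28523780-28523974: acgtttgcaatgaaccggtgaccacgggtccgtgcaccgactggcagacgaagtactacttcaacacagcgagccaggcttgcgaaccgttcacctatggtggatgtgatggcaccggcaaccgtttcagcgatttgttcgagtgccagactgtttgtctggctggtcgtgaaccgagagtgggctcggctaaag
Ppn exon chr3R:28523527-28523697: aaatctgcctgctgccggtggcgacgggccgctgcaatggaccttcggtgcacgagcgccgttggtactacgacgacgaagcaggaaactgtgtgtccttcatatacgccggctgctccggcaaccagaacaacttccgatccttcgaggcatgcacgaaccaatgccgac

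**Figure D4:**
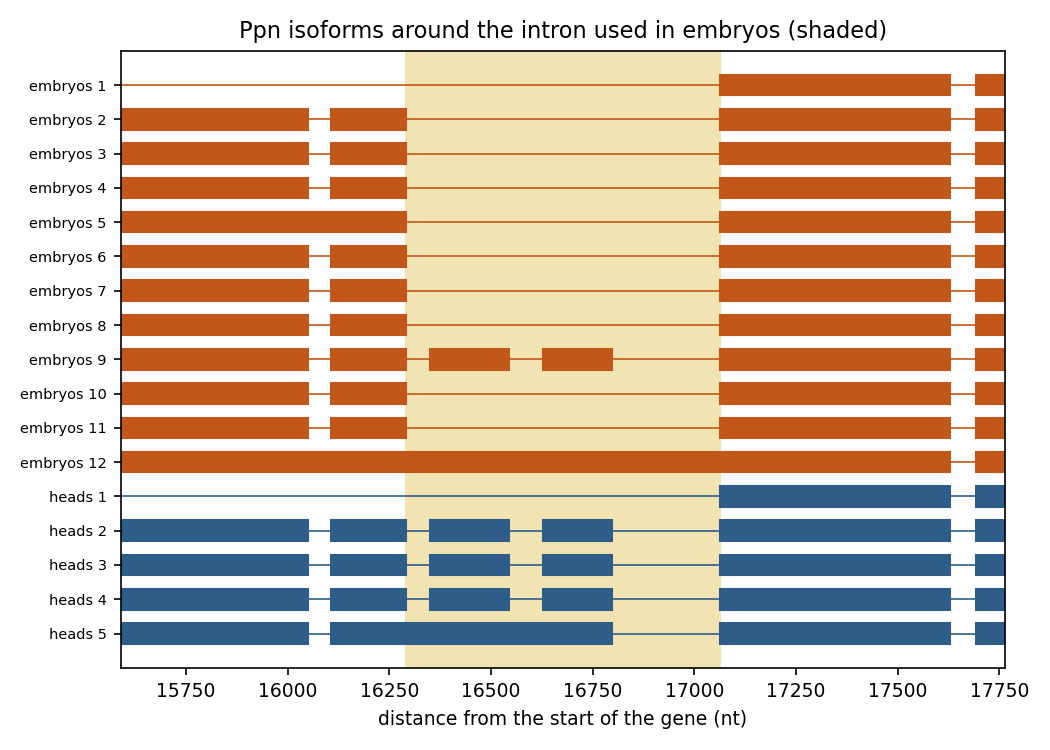
Exons (boxes) and introns (lines) of the 12 embryo (orange) and 5 heads (blue) isoforms of *Ppn* around the 773-nt intron (shaded), by distance from the start of the gene in nt, with isoforms numbered by length. The shaded region is spliced out whole in 10 embryo isoforms (9 with the 773-nt intron and 1 with a longer one) and in 1 heads isoform (a longer intron), and it holds the 2 exons in 1 embryo and 3 heads isoforms.

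Start sites added little to the numbers. Over the 137 genes the embryo isoforms began at 186 TSSs and the heads isoforms at 178, with 5′ ends within 50 nt of each other joined into 1 TSS. More TSSs in embryos than in heads were found in 18 genes (13.1%, beside 4.59% of the 1721 genes), the same number in 110 and fewer in 9. The isoform rule and these counts come from the same lists, so nothing is read from that difference. A TSS in embryos was called embryo-only when heads had none of the same gene ID within 50 nt. Such a TSS was present in 21 genes (beside 5.52% of the 1721 genes). There were 23 in all, of which 22 were annotated and 4 were also used in ovaries. Heads isoforms under other IDs were not searched for these starts. Such isoforms share introns with *CG44286* (10 isoforms), *SclB* (4), *amd* (1) and *CG34396* (1), which are among the 21 genes. The authors took 5′ ends from known promoters, so the annotated share is tied to that step and is no support for these starts. The strand of an isoform matched the annotation in all but 2 of the 135 annotated genes. The 3 heads isoforms of *Syx1A*, and all 3 embryo and 2 heads isoforms of the forkhead gene *fkh*, were single-exon isoforms listed on the opposite strand, where start and end change places. Without these 2 genes, 21 embryo-only TSSs in 19 genes remained, all annotated, and 17 genes had more TSSs and 83 more PASs in embryos.

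Several of the embryo-only starts lay in genes of the matrix and of signalling. *vkg* had 1 of its 15 embryo isoforms start at chr2L:5028191, 746 nt upstream of the TSS of its other 14 embryo and 11 heads isoforms. *Col4a1* lies head to head with *vkg*, and its only TSS (position 5029610) was 2165 nt from the common *vkg* TSS and 1419 nt from the embryo-only one. *LanB2* had 1 of 12 embryo isoforms start at chr3L:9615961, 1046 nt downstream of the TSS shared with heads. *LanB1* used 2 TSSs in both lists, at chr2L:7811439 (6 embryo and 2 heads isoforms) and chr2L:7814355 (4 embryo and 1 heads isoforms). In *fz2*, a Wnt receptor gene, 1 of 13 embryo isoforms began 23888 nt from the nearest heads TSS. In *ko* it was 2 of 9 isoforms, 31059 nt away, and this TSS was in ovaries too. *Ser* had 2 embryo isoforms with a start 272 nt from that of its heads isoform. The POU-domain genes *nub* and *pdm2* each had 1 embryo isoform with a start of its own, 438 and 102 nt from the nearest in heads.

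The letters around the start sites were not used by the rule. The initiator is a core promoter element that lies across the start site and helps to place RNA polymerase. Its letters TCAGT, searched on the sense strand within 10 nt of the TSS, were present at 80 of the 186 embryo TSSs of the 137 genes (43.0%) and at 581 of 2547 embryo TSSs of the other 1584 genes (22.8%). Of the 137 genes, 70 had it at 1 TSS or more. No such number of genes is given for the other genes, so nothing is read from it. The share was 44.8% of 87 TSSs in embryo-rich genes without ovary isoforms, against 32.4% of 518 in other genes without them. It was 41.4% of 99 in embryo-rich genes with ovary isoforms, against 20.4% of 2029 in other genes with them. That split was chosen after the shares were seen. TSSs of 1 gene are not independent, and the difference was not tested.

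Other promoter letters differed less or were rare. TATAAA, starting 45 nt or less before the TSS and ending at least 16 nt before it on the sense strand, was at 8 of 186 TSSs (4.30%), against 63 of 2547 (2.47%) in other genes. In the 250 nt before and 50 nt after the TSS, on either strand, GAGAG was at 55.9% of TSSs of embryo-rich genes and 52.5% of those of other genes. TATCGATA, the core of the DNA replication-related element of broadly active genes, was at 7 TSSs of embryo-rich genes (3.76%) and at 7.38% of the others. AACCGGTT, the site of the epithelial factor Grainyhead, was at 5 TSSs (2.69%) and at 0.864% of the others, and AGATAAG at 3.23% of TSSs of embryo-rich genes and 3.06% of the others. A match to these letters is a description and not a binding site.

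Core promoters of genes described above are shown to set TSSs with the initiator letters beside TSSs without them. Each runs from 60 nt before the TSS to 30 nt from it in the RefSeq copy of dm6, on the strand of the gene, with TCAGT in capitals where it lies within 10 nt of the TSS.
mesh, chr3R:31195733-31195822, minus strand: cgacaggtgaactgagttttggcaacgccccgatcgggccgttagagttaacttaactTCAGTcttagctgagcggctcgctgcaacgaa
Ppn, chr3R:28540295-28540384, minus strand: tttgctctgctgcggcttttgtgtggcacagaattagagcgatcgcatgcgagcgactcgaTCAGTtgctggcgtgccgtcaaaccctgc
LanB2, both assemblies, chr3L:9614855-9614944, plus strand: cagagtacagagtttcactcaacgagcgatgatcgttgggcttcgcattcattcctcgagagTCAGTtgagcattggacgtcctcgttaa
LanB2, embryos only, chr3L:9615901-9615990, plus strand: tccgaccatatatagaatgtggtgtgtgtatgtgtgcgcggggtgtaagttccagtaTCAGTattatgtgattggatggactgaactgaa
LanB1, chr2L:7814295-7814384, plus strand: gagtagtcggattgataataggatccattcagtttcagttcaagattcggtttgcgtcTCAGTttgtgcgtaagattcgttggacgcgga
vkg, embryos only, chr2L:5028162-5028251, minus strand: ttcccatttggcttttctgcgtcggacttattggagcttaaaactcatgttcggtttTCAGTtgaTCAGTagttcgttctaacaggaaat
vkg, both assemblies, chr2L:5027416-5027505, minus strand: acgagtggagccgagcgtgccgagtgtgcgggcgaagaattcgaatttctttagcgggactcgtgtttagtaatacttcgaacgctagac
Col4a1, chr2L:5029550-5029639, plus strand: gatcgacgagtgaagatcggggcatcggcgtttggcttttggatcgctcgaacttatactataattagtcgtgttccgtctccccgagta
trol, chrX:2545381-2545470, minus strand: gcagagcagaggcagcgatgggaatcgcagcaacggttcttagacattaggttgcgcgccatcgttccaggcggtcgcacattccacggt
The embryo-only TSSs of *vkg* and *LanB2* both held TCAGT, and so did the TSS that *LanB2* used in both tissues, whereas the common *vkg*, the *Col4a1* and the *trol* TSSs did not. The other *LanB1* TSS (chr2L:7811439), with 6 embryo and 2 heads isoforms, is not shown and lacked the letters. Of further TSSs not shown, the embryo TSSs of *mew*, *chinmo* and *ftz-f1* lacked them and that of *Tig* held them.

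Most of the additional embryo isoforms were described by their introns and 3′ ends. The 137 genes had 914 intron chains in embryos and 599 in heads, where any difference in a splice position made a chain distinct. They had 500 PASs in embryos and 341 in heads, with 3′ ends within 150 nt of each other joined into 1 PAS. More intron chains in embryos were found in 113 genes (82.5%, beside 8.43% of the 1721 genes) and more PASs in 84 (61.3%, beside 12.8%), which follows in part from the choice of the genes. Both were higher in 67 genes, intron chains alone in 46 and PASs alone in 17. The largest excess of PASs was in *trol* (14 in embryos and 7 in heads), *Cht6*, a chitinase gene (12 and 6), *chinmo* (14 and 9) and *nahoda* (8 and 3).

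An intron was called embryo-only when no heads isoform of the same gene ID had it at exactly the same positions. Heads isoforms under other IDs were not searched, although some share introns with genes such as *CG44286*, *SclB*, *amd*, *CG34396* and *cv-c*. Embryo-only introns were found in 72 of the 137 genes (beside 21.8% of the 1721 genes). They were 158 of the 1289 distinct introns of these genes in embryos, and 95 of the 158 were annotated. In the other direction 51 introns were seen in heads and not in embryos, 32 of them annotated. The genes with most embryo-only introns were *shot* (15 introns, of which 11 were annotated), *trol* (14) and *pip* (9). *shot* encodes the spectraplakin that links actin filaments to microtubules, and *pip* encodes a sulphotransferase. The introns of *trol* and *pip* were all annotated. Each of the 11 annotated *shot* introns was in only 1 embryo isoform, and each of those of *pip* was in 1 or 2. *mesh* and 7 other genes had 4 each, and none of the 4 in *mesh* was annotated. In *pip* the median isoform length was 4501 nt in embryos and 1615.5 nt in heads, and its 10 embryo isoforms had 10 different intron chains.

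A PAS in embryos with no 3′ end of the same gene ID in heads within 150 nt was found in 104 genes (beside 50.4% of the 1721 genes), 259 PASs in all. The 3′ ends that only embryos had were less often near an annotated end, and less often followed a poly(A) signal, than those shared with heads, a difference that was not tested. Of 270 distinct embryo-only 3′ ends, 24 (8.89%) were at most 150 nt from an end in the annotation and 31 (11.5%) had the poly(A) signal AATAAA in the 50 nt before the end. Of 275 distinct embryo 3′ ends also in heads, 159 (57.8%) were near an annotated end and 120 (43.6%) had AATAAA. Ends of the same genes found only in heads were alike: of 100, 9% were near an annotated end and 17% had AATAAA, against 60.2% and 43.7% of the heads ends also in embryos. The other 1584 genes showed a similar contrast: 7.03% annotated and 12.0% with AATAAA among 1409 embryo-only ends, against 50.2% and 37.7% among 4046 shared ends. At least 12 A in the 20 nt after the end, a sequence at which primers can bind inside an RNA, was found at 4.44% of embryo-only and 11.3% of shared ends of embryo-rich genes. For heads ends of these genes the order was the other way round, at 11% of heads-only ends and 8.81% of those also in embryos. In the other genes the shares were 4.76% and 13.9% for embryo ends and 6.37% and 12.4% for heads ends. These differences were not tested.

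**Figure D5:**
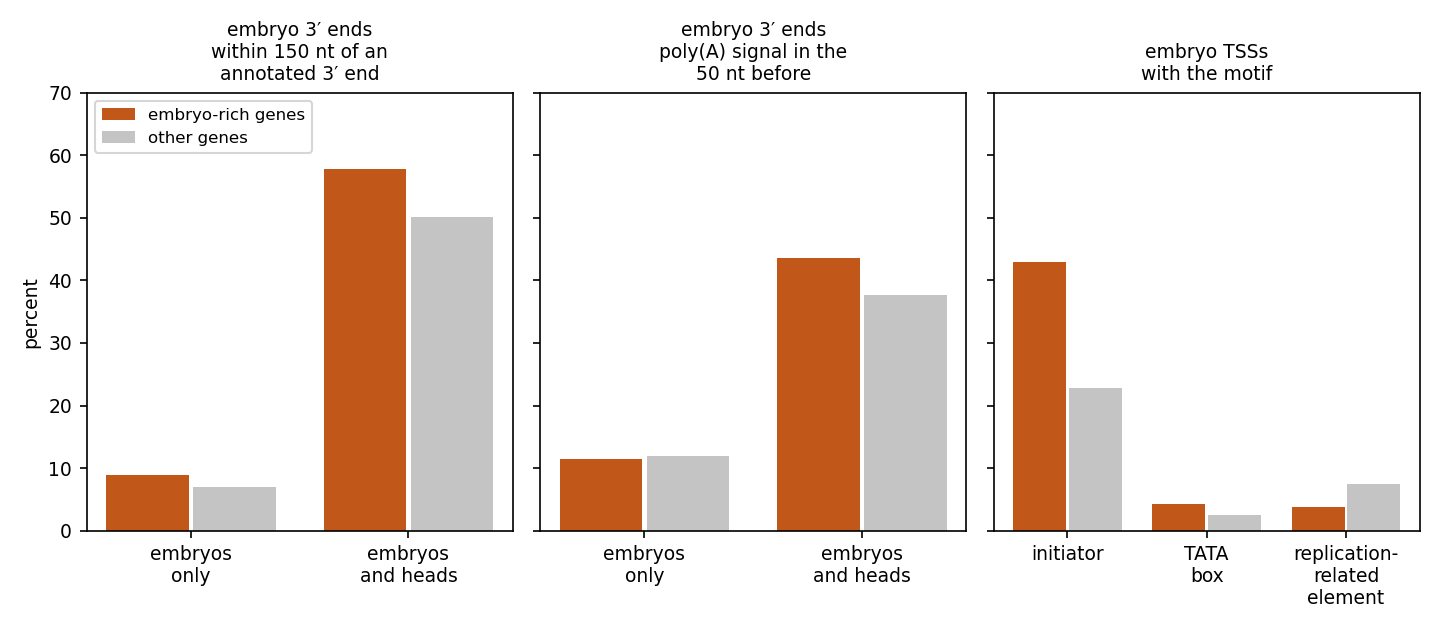
Percent of distinct embryo 3′ ends near an annotated 3′ end (left) and with the poly(A) signal (middle), for ends in embryos only and in both assemblies, and percent of embryo TSSs with each of 3 core promoter motifs (right). Bars are embryo-rich genes (orange) and the other genes with at least 3 embryo isoforms (grey). The share with the initiator was 43.0% in embryo-rich and 22.8% in other genes, and embryo-only ends were below shared ends in both.

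Embryo-only ends with the signal are shown for 4 genes, as the last 30 nt of the transcript in the RefSeq copy of dm6 with AATAAA in capitals. Those of *Ten-m* and *CG11905* are annotated ends, those of *NetA* and *Ugt303B3* are not.
Ten-m, chr3L:22293045-22293074, minus strand: taaaaagcgatttcAATAAAaatgaaaata
CG11905, chr3L:16929855-16929884, minus strand: ttagattgtaAATAAAgtaaaccgtaaact
NetA, chrX:14603672-14603701, minus strand: ataacgttgccacactctAATAAAaacttc
Ugt303B3, chr3R:23531282-23531311, minus strand: taaaataacaAATAAAatttacaaaaatca
Each end belonged to 1 embryo isoform of *Ten-m* and of *Ugt303B3*, 2 of *NetA* and 3 of *CG11905*.

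Most embryo-rich genes reached the same most distal 3′ end in both tissues. The last exons of the most distal isoforms overlapped in 132 of the 137 genes, the median difference was 0 nt and 106 genes differed by 150 nt or less. The end was further downstream in embryos in 16 genes (12.1%, beside 5.30% of 1623 genes compared) and in heads in 10 genes (7.58%, beside 19.7%). It is the furthest end over all isoforms of a gene, so a list with more isoforms can reach further. The rule chose genes with more isoforms in embryos, so nothing is read from these shares. The largest extensions in embryos were in *Fili* (1881 nt), *Ugt303B3* (1406 nt), *Ten-m*, which encodes a teneurin adhesion protein (1190 nt), *rau* (1127 nt), *CG11961* (995 nt) and *Ndg* (930 nt). Further matrix and adhesion genes among them were *Tig* (761 nt), *Itgbn* (724 nt) and *LanB1* (380 nt). In the other direction, the embryo minus heads distance was -705 nt in *ush*, -576 nt in *Sema5c*, -556 nt in *fra*, -488 nt in *CG18304*, -421 nt in *esn* and -328 nt in *sls*. No gene ended more than 1000 nt further downstream in heads, and 4 did so in embryos. No share over the 1623 genes is given at this limit, and nothing is read from these numbers.

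Embryo isoforms had a median of 4790 nt, heads isoforms 4939 nt and ovary isoforms 4840 nt. In the other 1584 genes these medians were 4420, 4355 and 4045.5 nt. The genes spanned a median of 15560 nt with 3 annotated transcripts, beside 14760 nt and 4 over the 1721 genes. A single exon was rare, at 0.618% of embryo and 0.743% of heads isoforms. The genes were spread over the chromosomes, with 28 on 2L, 31 on 2R, 30 on 3L, 28 on 3R, 1 on chromosome 4 and 19 on X. The X held 13.9% of them and 18.0% of the 1721 genes.

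An annotated intron was present inside an exon in 489 of 1133 embryo isoforms (43.2%), 248 of 673 heads isoforms (36.8%) and 17 of 149 ovary isoforms (11.4%). In the other genes the shares were 38% in embryos, 50.1% in heads and 23.2% in ovaries, so the order of embryos and heads was the other way round. Isoforms with such an intron count towards the numbers that chose the genes, so nothing is read from that order. In 58 of the 489 embryo isoforms every such intron was also inside an exon of an annotated transcript. The 3′ end lay before the first annotated stop codon of the gene in 293 of 1124 embryo isoforms (26.1%) and 161 of 668 heads isoforms (24.1%) of the annotated genes, against 17.7% and 11.6% in other genes. *shot*, whose annotated transcripts reach 27842 nt, accounted for 31 of the embryo and 23 of the heads isoforms of this kind, and *trol*, *chinmo*, *Cht6* and *cv-c* for 21, 15, 12 and 11 in embryos and 8, 7, 2 and 12 in heads. All 9 embryo and all 4 heads isoforms of *sls*, the titin-like gene of muscle with transcripts of up to 56489 nt, ended before its first stop codon.

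Of the embryo isoforms of the set, 377 of 1133 (33.3%) had an identical isoform in heads and 602 (53.1%) had the same intron chain there. The 95% Wilson interval of the 33.3%, 30.6% to 36.1%, treats isoforms as independent, which those of 1 gene are not. It measures no spread between replicates or genes. Of the heads isoforms, 361 of 673 (53.6%) had an identical one in embryos. Over the 1721 genes the shares were 51.5% of embryo isoforms and 19.1% of heads isoforms, which is tied to the numbers of isoforms in each list. In 36 genes all heads isoforms had an identical embryo isoform, in 122 at least 1 was shared, and in 15 none was. In 8 genes not even an intron chain was shared. Identical isoforms in ovaries were found for 93 embryo isoforms (8.21%), against 16.8% over the 1721 genes. The rule allowed no more ovary isoforms than heads isoforms, and 68 genes of the set had none in ovaries. The choice of genes thus limits the ovary share, so nothing is read from that difference.

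The transcription factor list had 56 genes with at least 3 embryo isoforms and an isoform in heads, and 8 of them were in the set (14.3%, beside 7.96% of all 1721 genes). The list is not complete, as *ham*, *cwo*, *dve* and *salm* are also in the set. Over the 130 genes of the list in both assemblies, 14 had more isoforms in embryos, 84 more in heads and 32 equal numbers. Beside *chinmo* and *ftz-f1*, the zinc-finger gene *zfh1* had 8 isoforms in embryos, 4 in heads and 3 in ovaries, and the GATA cofactor gene *ush* had 7, 5 and 3. *nub* (5 in embryos, 2 in heads), *Ptx1* (4 and 3), *pdm2* (3 and 2) and *fkh* (3 and 2, all on the strand opposite to the annotation) had few isoforms and none in ovaries.

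Ligands and receptors of developmental pathways gave 5 of 34 genes (14.7%, beside 7.96% of all 1721 genes). The Wnt ligand gene *wg*, also used above as an embryo marker, had 3 isoforms in embryos and 1 in heads. The Wnt receptor genes *fz2* and *fz* had 13 and 5 in embryos and 10 and 3 in heads. *Ser* had 5 in embryos and 1 in heads, while its receptor gene *N* had 3 in each. The Hippo pathway gene *ex* had 3 in embryos and 2 in heads. Of the 84 genes of this list in both assemblies, 66 had more isoforms in heads.

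Genes of axon guidance and adhesion gave 8 of 50 (16.0%, beside 7.96%). They held a ligand and its receptor, as *NetA* (netrin) had 3 isoforms in embryos and 2 in heads and *fra*, the netrin receptor gene, had 12 and 10. The second netrin gene, *NetB*, had 7 in embryos and 17 in heads. *ed* had 14 in embryos and 8 in heads, *Ten-m* 11 and 8, *Sema5c* 10 and 9, *caps* 9 and 7, *Nlg1* 7 and 5, and *CadN* 4 and 3. In *CadN*, where annotated transcripts reach 13384 nt, the longest isoform was 4502 nt in embryos and 6988 nt in heads, and all 7 ended before the first stop codon.

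The next lists are also read beside 7.96% of all 1721 genes, and each share rests on 2 to 4 genes. Junction genes gave 3 of 24 (12.5%), namely *mesh*, *ed* and *bark*, which encodes a protein of tricellular junctions (8 in embryos, 4 in heads and 1 in ovaries). The median isoform of *bark* was 9656 nt long in embryos and 10117 nt in heads. Muscle genes gave 3 of 30 (10%), near the share over all genes. These were *how*, an RNA-binding protein gene needed in muscle and tendon cells (24 in embryos, 20 in heads and 5 in ovaries), *sls* (9, 4 and 1) and *mbc*, a gene of myoblast fusion (6, 5 and 2). Genes of blood cells and fat body gave 4 of 13 (30.8%), of which *Col4a1*, *vkg* and *Tig* are also in the basement membrane list and the fourth was *ush*. Apical matrix and tracheal genes gave 2 of 17 (11.8%, *bark* and *cyr*) and chitin and cuticle genes 2 of 13 (15.4%, the chitin deacetylase gene *Cda4* and *Vajk1*).

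The remaining lists held 0 to 2 of these genes each, beside 7.96% of all 1721 genes. Actin, myosin and microtubule regulators gave 1 of 50 (2%, *shot*), RNA-binding and RNA processing genes 1 of 38 (2.63%, *how*), chromatin genes 1 of 32 (3.12%, *chinmo*) and trafficking genes 2 of 20 (10%, *cv-c* and *Syx1A*, near the share over all genes). Synapse and excitability genes gave 1 of 43 (2.33%), *Syx1A*, which had 4 isoforms in embryos and 3 in heads. These are the single-exon isoforms described above whose strand differed between the lists. Cell cycle genes gave 0 of 5, glial genes 0 of 14 and metabolic enzymes 0 of 12, all lists of few genes. The lists overlap and held 42 of the 137 genes. Of the other 95, 38 are named by a CG number only.

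The set depended on how an isoform was counted. When only distinct intron chains were counted, 112 of the 137 genes met the rule, and with only distinct combinations of TSS and PAS 71 did. More isoforms in embryos than in heads, with no minimum number, were kept by 75 genes in each of 4 ways of counting: near-identical isoforms merged, intron chains, TSS-PAS combinations and isoforms with introns. Isoforms of other gene IDs that share an intron were counted with a gene in 1 further setting. *amd*, *CG34396*, *CG44286*, *SclB* and *cv-c* then no longer met the rule, since 1 to 10 such isoforms lay in heads.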

How the data were processed

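Full-length cDNA of w1118 embryos, heads and ovaries was read on Oxford Nanopore devices in 15 libraries. Per the study's methods, the authors aligned the reads to dm6 with minimap2, collapsed them with FLAIR into isoforms with at least 3 full-length reads, took 5′ ends from known promoters and junctions from short reads, and classified the isoforms with SQANTI3. The sources used here do not say if a later filter on 3′ ends was applied to the deposited lists. The deposited values are exon positions, 1 list per tissue, with no read numbers.

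Isoforms were counted per FlyBase gene ID. For identical isoforms and shared intron chains, introns matched within 10 nt. Embryo-only introns, annotated introns and numbers of distinct intron chains were taken by exact position. A TSS matched within 50 nt and a PAS within 150 nt. Positions were compared with the Ensembl release 115 annotation, and sequences were read from the RefSeq genome of the same assembly. The scripts (Python 3.11.15, numpy 2.4.6, scipy 1.17.1, matplotlib 3.10.9) were tested on simulated data. With 1 pooled list per tissue no test was possible.

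The genes and the 17 lists were chosen with earlier results of these data known. Named genes followed a rule: the 12 largest differences and 6 largest ratios of embryos to heads, up to 4 per list by embryo isoforms, the 4 largest differences in TSSs and in PASs, the 6 furthest distal ends in each direction, the 4 with most embryo-only introns, and 3 genes on each side of the limit. Genes named beyond it, such as the rest of a list or the genes with an embryo-only TSS, were chosen after their values were seen. Alternatives were other windows, merged isoforms, intron chains or TSS-PAS combinations only, single-exon isoforms left out, other minimum numbers, and shared gene IDs joined.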

Additional observations from a re-analysis of the deposited data

How the results depend on the processing

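No paired analysis was possible because each tissue had 1 pooled list, and for the same reason no library could be left out. Of 25 alternatives, 18 moved a value by less than the limit set (1.5 times for a count) and 7 by more. The set had 137 genes, and 80 with a minimum of 5 embryo isoforms, while the other ways of choosing gave between 129 and 190 genes. Counts by TSS-PAS combinations gave 147 genes, of which 71 were among the 137. The most distal 3′ end was further downstream in heads in 10 genes, in 16 with a window of 75 nt and in 6 with 300 nt. The share of embryo isoforms identical in heads was 33.3%, and 53.1% by the intron chain alone, 30.4% with narrower and 36.6% with wider windows. TCAGT was at 43.0% of the TSSs within 10 nt, and at 26.9% within 5 nt (14.4% in other genes), a window chosen after seeing the data. The lists hold no read numbers, so the results could not be set to equal depth.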
